A study of Mus musculus with 12 samples.

Results

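Transcripts of the carnitine shuttle and of mitochondrial beta-oxidation were followed in primary mouse hepatocytes given CP775146, which activates PPAR-alpha, a nuclear receptor for fatty acids. The pathway was taken as 35 genes listed by their biochemical step: activation of fatty acids, the shuttle, acyl-CoA dehydrogenation, hydration to thiolysis, handling of double bonds, electron transfer and propionyl-CoA. Each of the 35 was found under 1 identifier among the 46983 genes of the count files, and 34 had enough counts to be tested. The exception was Acsl6, an acyl-CoA synthetase gene best known from brain, which had 1 count in all 12 libraries together.

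The hepatocytes came from knock-in (KI) mice of the genotype AEG-1-L24K/L25H or from their AEG-1-WT littermates (wild type, WT). The stated diet is regular chow, and a high-fat diet that the labels also describe is named for no library. Knock-in mice carry the changes L24K and L25H in AEG-1, the protein encoded by Mtdh, introduced by CRISPR/Cas9 in the C57BL/6/J background and bred from heterozygous parents. The 4 groups of 3 libraries were knock-in given CP775146, knock-in untreated, wild type given CP775146 and wild type untreated. The agonist was used at 2.5 µM for 24 h, with the Greek letter of the unit stored as a symbol-font character in the labels. No vehicle is named for the untreated groups, and neither the age of the mice nor the animal or culture behind a library is given. The p-values therefore measure the spread between libraries, which may be technical, and the genotypes and the animals or preparations they came from cannot be told apart.

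Long-chain fatty acids are coupled to coenzyme A by acyl-CoA synthetases, handed to carnitine by CPT1 on the outer mitochondrial membrane, carried across the inner membrane by a translocase and returned to coenzyme A by CPT2. Inside, each turn of beta-oxidation removes an acetyl-CoA by dehydrogenation, hydration, a second dehydrogenation and thiolysis, and the first dehydrogenation passes its electrons to ubiquinone through the electron transfer flavoprotein. Many genes of this pathway are known targets of PPAR-alpha, which binds DNA together with the retinoid X receptor RXR, and in liver the pathway feeds ketone body synthesis during fasting.

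Total counts per library were 26956032 to 34885451, and 3 counts corresponded to 0.0860 to 0.111 CPM (counts relative to the library's total after TMM scaling). The 35 genes together held 0.903 to 0.930% of all counts in treated and 0.394 to 0.396% in untreated knock-in libraries, against 0.935 to 0.974% in treated and 0.317 to 0.340% in untreated wild-type libraries. Levels of cell type markers are given in the order treated knock-in, untreated knock-in, treated wild type and untreated wild type, and most lists are dominated by 1 gene. Of the 10 hepatocyte markers, all tested, Alb alone had 64310 to 66929, 68089 to 72572, 105462 to 111477 and 100884 to 103976 CPM, and the other 9 summed to 15201 to 15712, 18112 to 18177, 15940 to 16166 and 17939 to 18908 CPM. Of these 10 genes, 6 were called lower in the knock-in in each state, while Apob was called higher in both and Cps1 higher with the agonist. Among all tested genes 20.5% were called higher and 22.0% lower in the treated knock-in, and 18.4% higher and 18.6% lower in the untreated knock-in. Among macrophage markers (7 of 8 tested) Cd68 had 103 to 118, 147 to 156, 182 to 186 and 208 to 248 CPM, and the other 7 summed to 3.77 to 3.84, 5.71 to 5.89, 2.86 to 3.34 and 3.72 to 4.73 CPM. Of the 7 tested, 3 were called higher and 1 lower in the treated knock-in, and 2 higher and 1 lower in the untreated knock-in. Lyz2, called higher in both states, had only 0.19 to 0.89 CPM. Of the stellate cell markers (6 of 7 tested) Reln had 62.8 to 72, 103 to 115, 153 to 189 and 178 to 211 CPM, and the other 6 summed to 2.51 to 2.97, 2.99 to 3.61, 3.19 to 3.61 and 3.92 to 4.51 CPM. Of the endothelial markers (6 of 7 tested) Stab2 had 21.4 to 27.1, 31.7 to 36.5, 51.7 to 54.5 and 60.9 to 70.3 CPM, and the other 6 summed to 12.2 to 13.3, 14 to 15.4, 14 to 14.4 and 15.2 to 17.2 CPM. The cholangiocyte markers (6 of 7 tested) summed to 49 to 53, 43.5 to 46, 32.9 to 33.9 and 15.3 to 18.5 CPM, and the 6 leukocyte markers to at most 0.442 CPM. Of the 6 tested cholangiocyte markers, the agonist raised 2 and lowered 2 in the knock-in, and raised 3 and lowered 2 in wild type. Among all tested genes it raised 18.1% and lowered 19.1% in the knock-in, and raised 22.7% and lowered 22.3% in wild type. In the knock-in 4 of these 6 markers were called higher with the agonist and 5 without it, and 0 lower in either state. Of the 6 tested stellate cell markers 2 were called lower and 0 higher in the knock-in in each state. The same counts held for the 6 tested endothelial markers. The part of these cells in the results was not tested, and in bulk RNA fewer cells of a type cannot be told apart from less RNA per cell.

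CP775146 raised most of the pathway in both genotypes. In knock-in hepatocytes 27 of the 34 tested genes rose, 2 fell and 5 were not called, where a call is an edgeR quasi-likelihood p below 0.05 after Benjamini-Hochberg adjustment over all 15664 tested genes. Over all tested genes, 18.1% rose and 19.1% fell in that comparison. In wild-type hepatocytes 30 genes rose, 2 fell and 2 were not called, against 22.7% of all tested genes that rose and 22.3% that fell. Rises of at least 2-fold were called for 16 pathway genes in the knock-in and 21 in wild type, where 2.62% and 3.89% of all tested genes passed that rule. The median log2 change of the 34 genes was 0.98 in the knock-in and 1.24 in wild type, beside -0.01 for all tested genes in both.

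Summed over the 35 genes, the level was 8915, 8854 and 9133 CPM in treated and 3722, 3698 and 3722 CPM in untreated knock-in libraries. The wild-type libraries held 9991, 10107 and 10628 CPM with CP775146 and 3242, 3216 and 3406 CPM without. Knock-in libraries thus lay below wild type with the agonist and above it without, and no groups overlapped. The 8 steps did not share this order: with the agonist the activation genes summed higher in knock-in than in wild-type libraries, and the shuttle genes overlapped between genotypes.

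**Figure D1:**
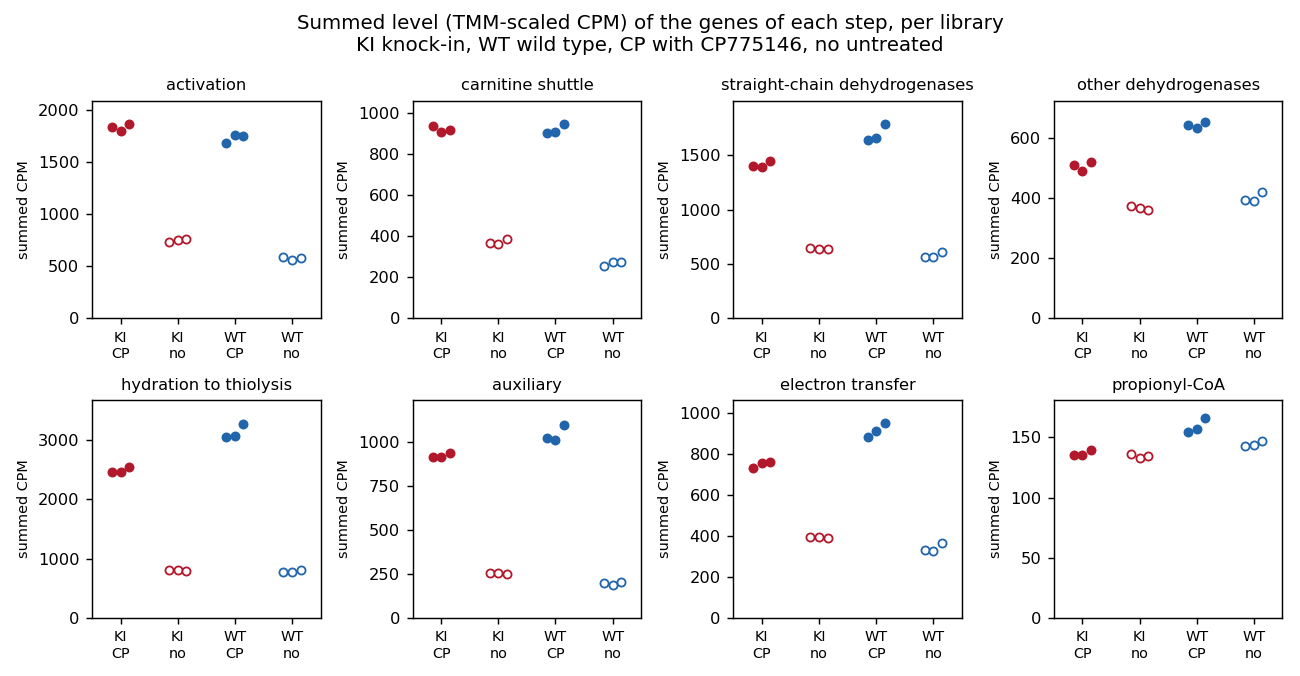
Summed level of the genes of each pathway step in each library (TMM-scaled CPM, linear axes from 0), with knock-in groups left of wild type and treated (filled) left of untreated (open). Each point is 1 of 3 libraries of a group. The hydration to thiolysis genes sum to 2453.4 to 2546.3 CPM in treated knock-in and 3056.2 to 3271.6 CPM in treated wild-type libraries, and the propionyl-CoA genes differ least between treated and untreated libraries.

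All 4 tested acyl-CoA synthetase genes rose in both genotypes. These enzymes activate fatty acids by coupling them to coenzyme A. Acsl1 (chr8:46471041-46536051), whose product is the main long-chain synthetase of liver, had 577, 556 and 581 CPM in treated and 110, 111 and 113 CPM in untreated knock-in libraries, and 686, 719 and 745 CPM in treated and 118, 123 and 118 CPM in untreated wild-type libraries. All 4 groups were separate, with wild type the higher both with and without the agonist. Acsl1 rose 5.12-fold in the knock-in (2.36 ± 0.04 log2, edgeR adjusted p = 3.61e-28) and 5.98-fold in wild type (2.58 ± 0.04 log2, edgeR adjusted p = 4.15e-29).

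Acsl5 (chr19:55253369-55296627), which encodes a synthetase of mitochondria and the endoplasmic reticulum, was ordered the other way between genotypes. It stood at 878, 867 and 891 CPM in treated and 438, 454 and 454 CPM in untreated knock-in libraries, against 713, 716 and 718 CPM in treated and 317, 305 and 319 CPM in untreated wild-type libraries. The knock-in was the higher genotype in both states without overlap, and the rise was 1.96-fold in the knock-in and 2.28-fold in wild type. Acsl4, the gene of a synthetase that favours arachidonic acid, averaged 322 ± 8.85 and 155 ± 6.65 CPM in treated and untreated knock-in hepatocytes and 242 ± 17.5 and 112 ± 8.83 CPM in treated and untreated wild type (SD, n = 3 each). Its rise was 1.05 ± 0.05 log2 in the knock-in and 1.11 ± 0.05 log2 in wild type. Acsl3, whose product is found on the endoplasmic reticulum and lipid droplets, rose 0.89 ± 0.05 log2 in the knock-in and 0.92 ± 0.05 log2 in wild type.

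Of the 6 shuttle genes, 5 rose and Cpt1c fell in each genotype. Slc22a5 (chr11:53864542-53891660), which encodes the carnitine transporter OCTN2 of the plasma membrane, had 90.2, 89.9 and 91.5 CPM in treated and 22.6, 21.4 and 20.2 CPM in untreated knock-in libraries. In wild type it had 95.7, 99.7 and 98.1 CPM with and 13.9, 16.5 and 18.8 CPM without the agonist. Treated libraries were above all untreated ones, and the rise was 4.23-fold in the knock-in and 5.96-fold in wild type (edgeR adjusted p = 1.15e-20 and 2.41e-22).

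Cpt1a (chr19:3323301-3385732), the liver form of the carnitine palmitoyltransferase that malonyl-CoA inhibits, had 346, 318 and 323 CPM in treated and 162, 160 and 177 CPM in untreated knock-in libraries. The wild-type libraries had 265, 270 and 252 CPM with and 101, 111 and 109 CPM without the agonist. Knock-in libraries were higher in both states, with no overlap. The rise was 0.98 ± 0.04 log2 in the knock-in and 1.30 ± 0.05 log2 in wild type.

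Cpt1b (chr15:89416405-89425863), the form known from muscle and brown fat, had the largest rise among the 34 tested genes in both genotypes, from a level far below that of Cpt1a. It had 5.87, 5.09 and 5.88 CPM in treated and 0.76, 1.13 and 0.8 CPM in untreated knock-in libraries, and 7.85, 8.48 and 8.33 CPM in treated and 0.44, 0.68 and 0.57 CPM in untreated wild-type libraries. The 4 groups did not overlap, and the untreated wild-type libraries held only 12, 18 and 16 counts. Cpt1b rose 6.26-fold in the knock-in (2.65 ± 0.15 log2, edgeR adjusted p = 6.29e-15) and 14.5-fold in wild type (3.86 ± 0.17 log2, edgeR adjusted p = 5.38e-18). Per kilobase of exon, treated levels were 1.67 ± 0.135 for Cpt1b and 76.4 ± 3.46 for Cpt1a in the knock-in, and 2.44 ± 0.0968 and 61 ± 2.15 for these genes in wild type (CPM per kilobase, SD, n = 3). These Cpt1b values are uncertain, because 81.4% of its exon length is shared with Chkb on the same strand and shared positions cannot be assigned to a single gene. The adipocyte and muscle markers, of which 2 of 8 were tested, summed to 25.1 to 25.8 CPM in treated and 14 to 16.7 CPM in untreated knock-in libraries, and to 72.1 to 83.3 CPM in treated and 39 to 46.5 CPM in untreated wild-type libraries. Most of that was Acta1. Cidea, the other tested marker, averaged 1.35 ± 0.323 CPM in treated and 0.396 ± 0.121 CPM in untreated knock-in hepatocytes. In wild type it averaged 3.68 ± 0.912 CPM with and 0.222 ± 0.174 CPM without the agonist (SD, n = 3 each). Both tested markers were called up in each genotype, where 18.1% of all tested genes rose in the knock-in and 22.7% in wild type. The interaction of Cidea was called at -2.25 log2. The muscle gene Ckm had 0 counts in all libraries, and the part of such cells was not tested.

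Cpt1c (chr7:44959373-44974851), a form known from neurons, was near the limit of detection at 0.79, 0.55 and 0.65 CPM in treated and 1.51, 0.98 and 1.39 CPM in untreated knock-in libraries. In wild type it had 0.39, 0.78 and 0.37 CPM with and 0.66, 1.28 and 1 CPM without the agonist, with overlap between these wild-type groups. It fell in both, with a log2 change of -0.96 ± 0.27 in the knock-in (edgeR adjusted p = 0.00573) and -0.91 ± 0.32 in wild type (edgeR adjusted p = 0.0203). The wild-type call was lost with limma voom (adjusted p = 0.0539) and without treated wild-type replicate 1 or 3 or untreated wild-type replicate 2 (highest edgeR adjusted p = 0.133).

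Cpt2 (chr4:107903981-107923610), the inner-membrane enzyme that returns acyl groups to coenzyme A, had 278, 284 and 276 CPM in treated and 109, 112 and 114 CPM in untreated knock-in libraries. It had 322, 325 and 355 CPM in treated and 91.7, 100 and 93.9 CPM in untreated wild-type libraries. The knock-in was lower with the agonist and higher without it, in neither case with overlap. The rise was 2.5-fold in the knock-in and 3.5-fold in wild type (edgeR adjusted p = 3.03e-21 and 1.61e-24).

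Slc25a20 (chr9:108662088-108684641), the carnitine-acylcarnitine translocase and the only carrier of its kind on the list, had 217, 212 and 221 CPM in treated and 70.5, 69.1 and 72.6 CPM in untreated knock-in libraries. The wild-type libraries had 212, 205 and 233 CPM with and 49.9, 47.3 and 53.2 CPM without the agonist. Treated libraries of the genotypes overlapped while untreated ones did not. The rise was 3.06-fold in the knock-in and 4.32-fold in wild type (edgeR adjusted p = 2.61e-22 and 8.6e-25).

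**Figure D2:**
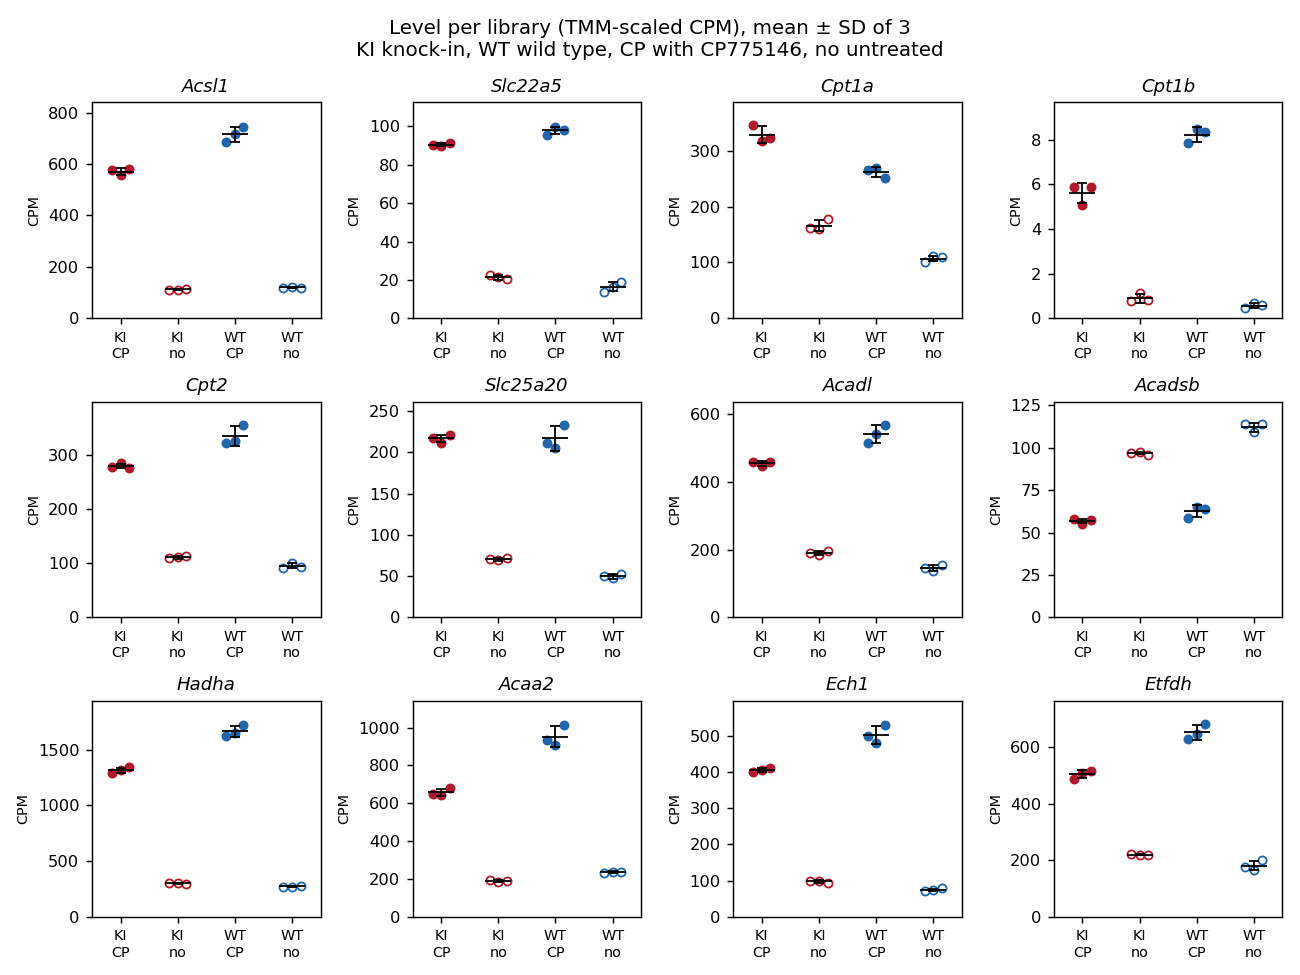
Level of 12 pathway genes in each library (TMM-scaled CPM, linear axes from 0), knock-in left of wild type and treated (filled) left of untreated (open). Points are libraries and bars are the mean ± SD of 3. Cpt1a is higher in the knock-in in both states, Acaa2 and Acadsb are lower in both, and Cpt2, Acadl, Hadha, Ech1 and Etfdh are lower in the knock-in with the agonist and higher without it.

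Because PPAR-alpha and RXR are known to bind direct repeats of AGGTCA spaced by 1 base, the RefSeq promoter windows (GRCm38.p6, 250 bases before to 50 after the transcript start) were searched for AGGTCA, any base N and AGGTCA in a row, on both strands with at most 2 mismatches at the 12 fixed positions. Windows were at hand for 31 of the 35 genes, 35 windows in all, and 4 of them held a match (11.4%), against 1268 of 32851 windows of all genes (3.86%). No window of the pathway matched with at most 1 mismatch, as 0.554% of all windows did. All 4 matches are shown, and their genes range from a strong response to a small one called in wild type alone. Each has 10 of the 12 positions, and capitals mark the 13 bases of the repeat, read on the gene's strand.
Slc25a20: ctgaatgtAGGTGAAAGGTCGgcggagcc
Etfa: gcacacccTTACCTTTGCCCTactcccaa
Echs1: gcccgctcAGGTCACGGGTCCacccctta
Pcca: cttgacgaGGGTGAGAGGTCAgcagccgg
They lie at chr9:108662134-108662162 (plus strand) for Slc25a20, chr9:55512300-55512328 (minus strand) for Etfa, chr7:140116484-140116512 (minus strand) for Echs1 and chr14:122534319-122534347 (plus strand) for Pcca. The Etfa match reads as the repeat on the opposite strand. That of Slc25a20 lies past the transcript start, beginning at base 7, and that of Pcca spans the start. CP775146 changed these genes by 1.61 ± 0.05, 0.40 ± 0.04, 0.14 ± 0.04 and 0.04 ± 0.05 log2 in the knock-in and by 2.11 ± 0.05, 0.59 ± 0.04, 0.15 ± 0.04 and 0.18 ± 0.05 log2 in wild type, in the order of the sequences. The genes with a match thus range from a called rise in both genotypes to a change in the knock-in that was not called. Such a match is a description of the letters and not evidence of binding, and the large responders Hadha, Slc22a5, Acsl1 and Ech1 had none in these windows.

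The 4 dehydrogenases of straight chains rose together in both genotypes. They carry out the first step of each turn on very long (Acadvl), long (Acadl), medium (Acadm) and short (Acads) chains. Acadl (chr1:66830839-66863277) had 460, 447 and 459 CPM in treated and 190, 185 and 196 CPM in untreated knock-in libraries, and 516, 542 and 569 CPM in treated and 146, 136 and 155 CPM in untreated wild-type libraries. The knock-in was lower with the agonist and higher without it, without overlap in either state. Acadl rose 2.39-fold in the knock-in and 3.72-fold in wild type (edgeR adjusted p = 2.24e-20 and 1.02e-24).

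Acadvl (chr11:70010183-70015411) had 380, 389 and 401 CPM in treated and 142, 141 and 132 CPM in untreated knock-in libraries, and 470, 457 and 499 CPM in treated and 119, 124 and 129 CPM in untreated wild-type libraries. It was ordered as Acadl, and it rose 2.83-fold in the knock-in and 3.82-fold in wild type. Its exons share 42.9% of their length with Dvl2 on the opposite strand, and the counting used no strand. Acadm, the gene of the medium-chain enzyme that newborn screening tests for, averaged 410 ± 10.5 CPM in treated and 209 ± 3.38 CPM in untreated knock-in hepatocytes, and 515 ± 26.3 CPM in treated and 212 ± 12.4 CPM in untreated wild type (SD, n = 3 each). Its rise was 0.97 ± 0.04 log2 in the knock-in and 1.28 ± 0.04 log2 in wild type. Acads had the smallest rise of the 4, with 0.61 ± 0.05 log2 in the knock-in and 0.75 ± 0.05 log2 in wild type. Along the chain lengths the wild-type rises were 1.93, 1.9, 1.28 and 0.75 log2 from very long to short, and the knock-in rises of 1.5, 1.26, 0.97 and 0.61 log2 kept that order.

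The 6 other acyl-CoA dehydrogenases were mixed, with 3 up and 1 down in the knock-in and 4 up and 1 down in wild type. Acadsb (chr7:131410601-131446211), which acts on the branched chain from isoleucine, was the only abundant pathway gene to fall. It had 57.8, 55.3 and 57.6 CPM in treated and 96.9, 97.7 and 96 CPM in untreated knock-in libraries, against 58.6, 65.3 and 64 CPM in treated and 114, 109 and 114 CPM in untreated wild-type libraries. Treated libraries were below untreated ones without overlap, and the log2 change was -0.77 ± 0.04 in the knock-in and -0.84 ± 0.04 in wild type (edgeR adjusted p = 3.85e-15 and 3.42e-16). Acad8, which acts on the branched chain from valine, was not called in either genotype, at -0.01 ± 0.06 log2 in the knock-in and 0.07 ± 0.06 log2 in wild type.

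Acad11 (chr9:104063377-104127656) was the strongest of these 6, with 353, 338 and 363 CPM in treated and 184, 177 and 175 CPM in untreated knock-in libraries, and 480, 467 and 486 CPM in treated and 194, 196 and 211 CPM in untreated wild-type libraries. Wild type was the higher genotype in both states, and Acad11 rose 1.97-fold in the knock-in and 2.38-fold in wild type. Acad10, a related gene, rose 0.21 ± 0.06 log2 in the knock-in, a call lost with total-count scaling (edgeR adjusted p = 0.0635), and 0.56 ± 0.06 log2 in wild type. Its neighbour on chromosome 5, Acad12, rose in wild type by 0.28 ± 0.10 log2 (edgeR adjusted p = 0.0237) and was at 0.04 ± 0.10 log2 in the knock-in, where it was not called. The Acad12 call in wild type was lost without untreated wild-type replicate 1 or 2 or treated wild-type replicate 3 (highest edgeR adjusted p = 0.158) and with total-count scaling (edgeR adjusted p = 0.14). Acad9, whose product also assembles respiratory complex I, rose 0.16 ± 0.05 log2 in the knock-in and 0.17 ± 0.05 log2 in wild type. Both Acad9 calls were lost with total-count scaling (edgeR adjusted p = 0.126 and 0.313) and when single libraries of the compared groups were left out, namely untreated replicate 2 or 3 or treated replicate 3 in the knock-in (highest edgeR adjusted p = 0.0638) and untreated replicate 1 or treated replicate 2 in wild type (highest edgeR adjusted p = 0.0986).

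All 5 genes from hydration to thiolysis rose in both genotypes, with a median of 1.80 log2 in the knock-in and 2.01 log2 in wild type. Hadha and Hadhb encode the subunits of the mitochondrial trifunctional protein, which carries out the last 3 reactions on long chains, and lie beside each other on opposite strands (chr5:30118304-30155162 and chr5:30155248-30184593). Hadha had 1295, 1316 and 1342 CPM in treated and 301, 303 and 297 CPM in untreated knock-in libraries, and 1625, 1655 and 1724 CPM in treated and 271, 270 and 278 CPM in untreated wild-type libraries. Hadhb had 102, 96.4 and 103 CPM in treated and 22, 22.1 and 21.5 CPM in untreated knock-in libraries, and 125, 123 and 138 CPM in treated and 19.4, 17.5 and 20.2 CPM in untreated wild-type libraries. Both genes were lower in the knock-in with the agonist and higher without it, and none of the 4 groups overlapped. Hadha rose 4.39-fold in the knock-in and 6.12-fold in wild type, and Hadhb rose 4.59-fold and 6.75-fold (edgeR adjusted p at most 2.75e-24). Per kilobase of exon the subunit genes stood far apart, at 151 for Hadha and 15.2 for Hadhb in treated knock-in hepatocytes and at 191 and 19.5 in treated wild type (CPM per kilobase, means of 3). These values divide by union exon lengths of 8730 and 6595 bases, and the counting used no option for multi-mapping reads. The part of either in this gap was not tested.

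Acaa2, a mitochondrial thiolase for chains shorter than those of the trifunctional protein, had 649, 646 and 680 CPM in treated and 196, 184 and 188 CPM in untreated knock-in libraries, and 932, 909 and 1015 CPM in treated and 231, 239 and 239 CPM in untreated wild-type libraries. Wild type was the higher genotype in both states, and the rise was 3.48-fold in the knock-in and 4.03-fold in wild type. Per kilobase of exon Acaa2 was the highest of the 35 genes in treated knock-in (435 ± 12.3), treated wild-type (629 ± 36.9) and untreated wild-type hepatocytes (156 ± 2.93 CPM per kilobase, SD, n = 3). In untreated knock-in hepatocytes Acsl5 stood above it, at 142 ± 3.03 against 125 ± 4.03 CPM per kilobase.

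Hadh, the second dehydrogenase for shorter chains, averaged 252 ± 8.38 CPM in treated and 149 ± 0.964 CPM in untreated knock-in hepatocytes, and 228 ± 5.55 CPM in treated and 113 ± 9.27 CPM in untreated wild type (SD, n = 3 each). It rose 1.69-fold in the knock-in and 2.01-fold in wild type. Echs1, the hydratase for shorter chains, was the weak member of this step, with rises of 0.14 ± 0.04 log2 in the knock-in and 0.15 ± 0.04 log2 in wild type. Both Echs1 calls were lost with total-count scaling (edgeR adjusted p = 0.0851 and 0.262).

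The 3 auxiliary genes, whose products move or reduce double bonds so that unsaturated chains can enter the spiral, rose in both genotypes. Ech1 (chr7:28825217-28832247), a dienoyl-CoA isomerase gene, had 401, 406 and 412 CPM in treated and 100, 98.1 and 94.3 CPM in untreated knock-in libraries, and 498, 479 and 529 CPM in treated and 70.9, 73.4 and 78.2 CPM in untreated wild-type libraries. Decr1 (chr4:15917240-15945507), the dienoyl-CoA reductase gene, had 387, 384 and 393 CPM in treated and 97.6, 101 and 102 CPM in untreated knock-in libraries, and 412, 426 and 448 CPM in treated and 75.6, 64.7 and 77.9 CPM in untreated wild-type libraries. Both were lower in the knock-in with the agonist and higher without it, with no overlap. Ech1 rose 4.17-fold in the knock-in and 6.76-fold in wild type, and Decr1 rose 3.88-fold and 5.89-fold (edgeR adjusted p at most 2.09e-22). Eci1, an enoyl-CoA isomerase gene, rose 1.20 ± 0.04 log2 in the knock-in and 1.23 ± 0.05 log2 in wild type.

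All 3 electron transfer genes rose. Etfdh (chr3:79603788-79629500), the dehydrogenase that passes electrons from the flavoprotein to ubiquinone, had 487, 510 and 516 CPM in treated and 222, 220 and 219 CPM in untreated knock-in libraries, and 629, 647 and 681 CPM in treated and 176, 167 and 200 CPM in untreated wild-type libraries. It was lower in the knock-in with the agonist and higher without it, with no overlap, and rose 2.29-fold in the knock-in and 3.61-fold in wild type. The flavoprotein's subunit genes differed from each other: Etfb rose 1.02 ± 0.05 log2 in the knock-in and 1.45 ± 0.06 log2 in wild type, and Etfa rose 0.40 ± 0.04 log2 in the knock-in and 0.59 ± 0.04 log2 in wild type. Etfb shares 58.2% of its exon length with Gm45233 and Mir7051 on the same strand, so that its values are uncertain.

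The 3 genes that handle propionyl-CoA, the product of odd and branched chains, had small responses, with the lowest median log2 change of the 8 steps in both genotypes. None was called in the knock-in, with Pcca and Pccb, the subunits of propionyl-CoA carboxylase, at 0.04 ± 0.05 and 0.03 ± 0.04 log2 and Mcee, the methylmalonyl-CoA epimerase, at -0.01 ± 0.06 log2. In wild type Pcca rose 0.18 ± 0.05 log2 (edgeR adjusted p = 0.00509) and Pccb rose 0.13 ± 0.04 log2 (edgeR adjusted p = 0.0148), while Mcee was at 0.12 ± 0.07 log2 and was not called. Neither wild-type call held with total-count scaling (edgeR adjusted p = 0.212 and 0.618). That of Pccb was also lost when only the compared groups were fitted (edgeR adjusted p = 0.0604) and without untreated wild-type replicate 1 or treated wild-type replicate 3 (highest edgeR adjusted p = 0.142).

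**Figure D3:**
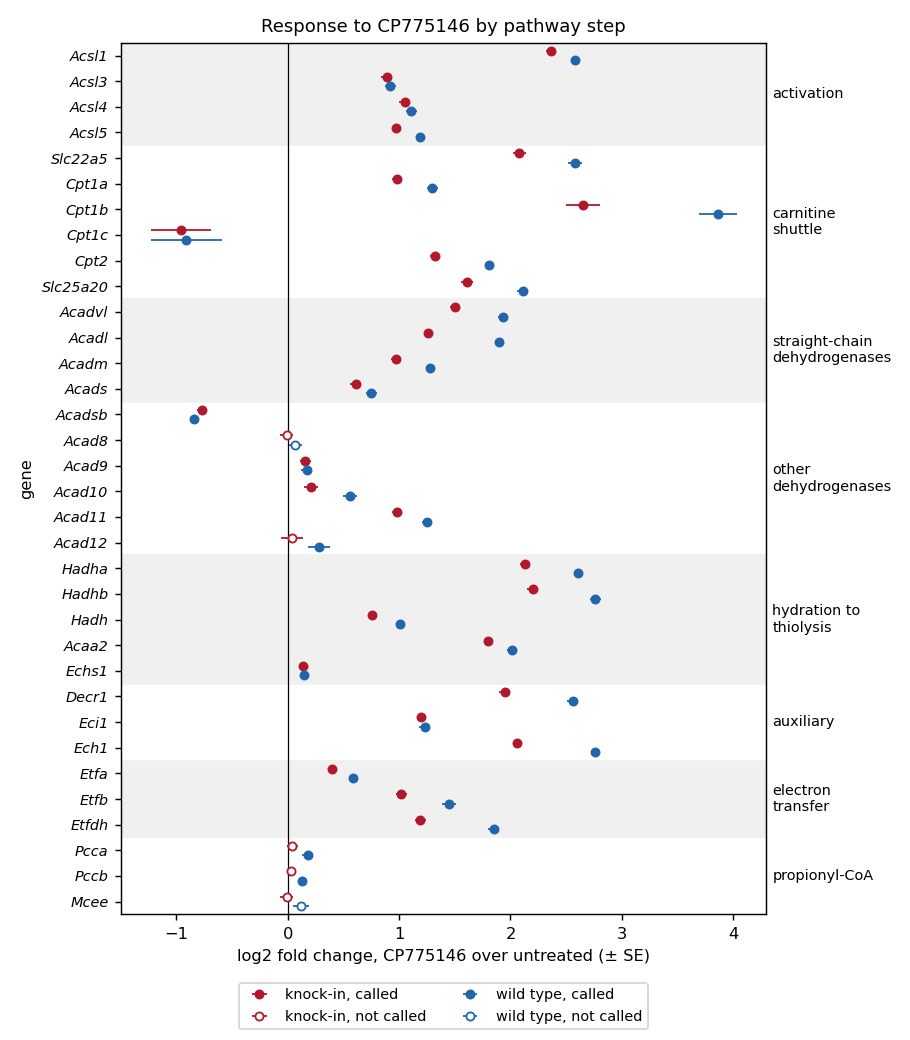
Response of the 34 tested genes to CP775146 (log2 fold change of treated over untreated, ± SE, n = 3 against 3), by pathway step, with the knock-in drawn above wild type for each gene. Filled points are called (edgeR adjusted p below 0.05) and open points are not. Cpt1b has the largest rise in both genotypes, Cpt1c and Acadsb are the only genes that fall, and the 3 propionyl-CoA genes lie near 0.

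The genotypes already differed without the agonist. In untreated hepatocytes 18 of the 34 genes were higher and 5 lower in the knock-in, against 18.4% of all tested genes that were higher and 18.6% that were lower, and the median difference was 0.16 log2 beside 0 for all genes. With total-count scaling 25 were higher and 3 lower. All called differences were small: the largest was that of Cpt1b at 0.66 ± 0.25 log2, followed by Cpt1a at 0.64 ± 0.05 log2 (edgeR adjusted p = 0.035 and 3.54e-12). The Cpt1b call was lost with DESeq2 (adjusted p = 0.0557), when only the compared groups were fitted (edgeR adjusted p = 0.0733), and without untreated knock-in replicate 2 or untreated wild-type replicate 1 or 3 (highest edgeR adjusted p = 0.218). Of the 6 shuttle genes 5 were higher in the knock-in, with Slc25a20 at 0.50 ± 0.05, Slc22a5 at 0.38 ± 0.07 and Cpt2 at 0.23 ± 0.04 log2 beside both Cpt1 genes, and Cpt1c at 0.40 ± 0.26 log2 was not called. Acsl5 and Acsl4 were higher by 0.52 ± 0.04 and 0.47 ± 0.05 log2, and all 3 auxiliary genes were higher, led by Decr1 at 0.46 ± 0.05 log2.

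The remaining higher genes of the untreated knock-in were Acadl at 0.38 ± 0.04, Acadvl at 0.15 ± 0.04, Acad10 at 0.27 ± 0.06, Hadh at 0.40 ± 0.04, Hadhb at 0.20 ± 0.06, Hadha at 0.14 ± 0.04, Etfb at 0.32 ± 0.06 and Etfdh at 0.29 ± 0.05 log2. The call for Hadhb was lost without untreated wild-type replicate 2 (edgeR adjusted p = 0.0877). The 5 lower genes came from 4 steps. Acaa2 was at -0.32 ± 0.04 log2 (edgeR adjusted p = 2.56e-07), Pccb at -0.23 ± 0.04 log2, Acadsb at -0.21 ± 0.04 log2 and Acad11 at -0.17 ± 0.04 log2. Acsl1, at -0.10 ± 0.04 log2 (edgeR adjusted p = 0.0422), lost its call in 5 other settings, from RLE scaling (edgeR adjusted p = 0.0509) to total-count scaling (edgeR adjusted p = 0.999), and on leaving out any of 8 libraries, namely all 6 of the knock-in and untreated wild-type replicates 1 and 2 (highest edgeR adjusted p = 0.162). Total-count scaling also ended the call of Acad11 (edgeR adjusted p = 0.201).

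With the agonist the balance was the other way. In treated hepatocytes 5 of the 34 genes were higher and 17 lower in the knock-in, where 20.5% of all tested genes were higher and 22.0% lower, and the median difference was -0.11 log2 beside -0.01 for all genes. With total-count scaling 9 were higher and 14 lower. The lower genes included 3 of the 4 straight-chain dehydrogenases, with Acadm at -0.33 ± 0.04, Acadvl at -0.28 ± 0.04 and Acadl at -0.25 ± 0.04 log2. From hydration to thiolysis, Acaa2 was at -0.53 ± 0.04 log2 (edgeR adjusted p = 4.22e-12), Hadhb at -0.36 ± 0.05 log2 and Hadha at -0.34 ± 0.03 log2. Cpt1b had the largest difference at -0.55 ± 0.11 log2 (edgeR adjusted p = 9.49e-05), and Cpt2 was at -0.26 ± 0.04 log2. Among the other called genes, Acad11 was at -0.44 ± 0.04, Acad12 at -0.38 ± 0.10, Etfdh at -0.37 ± 0.05, Acsl1 at -0.33 ± 0.04, Pccb at -0.33 ± 0.04 and Ech1 at -0.30 ± 0.04 log2.

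Decr1, Acadsb and Etfa completed the 17 with differences of -0.14 ± 0.05, -0.14 ± 0.04 and -0.12 ± 0.04 log2. These 3 calls rested on the scaling: with total-count scaling Decr1 was at -0.01 and Acadsb at 0 log2, and Etfa changed sign to 0.02 log2. They also rested on single treated libraries, since Decr1 was not called without wild-type replicate 3 (edgeR adjusted p = 0.0936), Etfa not without wild-type replicate 2 (edgeR adjusted p = 0.0692), and Acadsb not without knock-in replicate 2 or wild-type replicate 2 or 3 (highest edgeR adjusted p = 0.0849). The 5 higher genes were Acsl4 at 0.41 ± 0.05, Cpt1a at 0.32 ± 0.04, Acsl5 at 0.30 ± 0.03, Hadh at 0.15 ± 0.04 and Eci1 at 0.13 ± 0.04 log2. Without treated knock-in replicate 3 there were 3, because Hadh (edgeR adjusted p = 0.0577) and Eci1 were no longer called, and Eci1 was also lost without treated wild-type replicate 2 (highest edgeR adjusted p = 0.0778). Slc25a20 was at 0.00 ± 0.04 log2, a difference within its error.

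**Figure D4:**
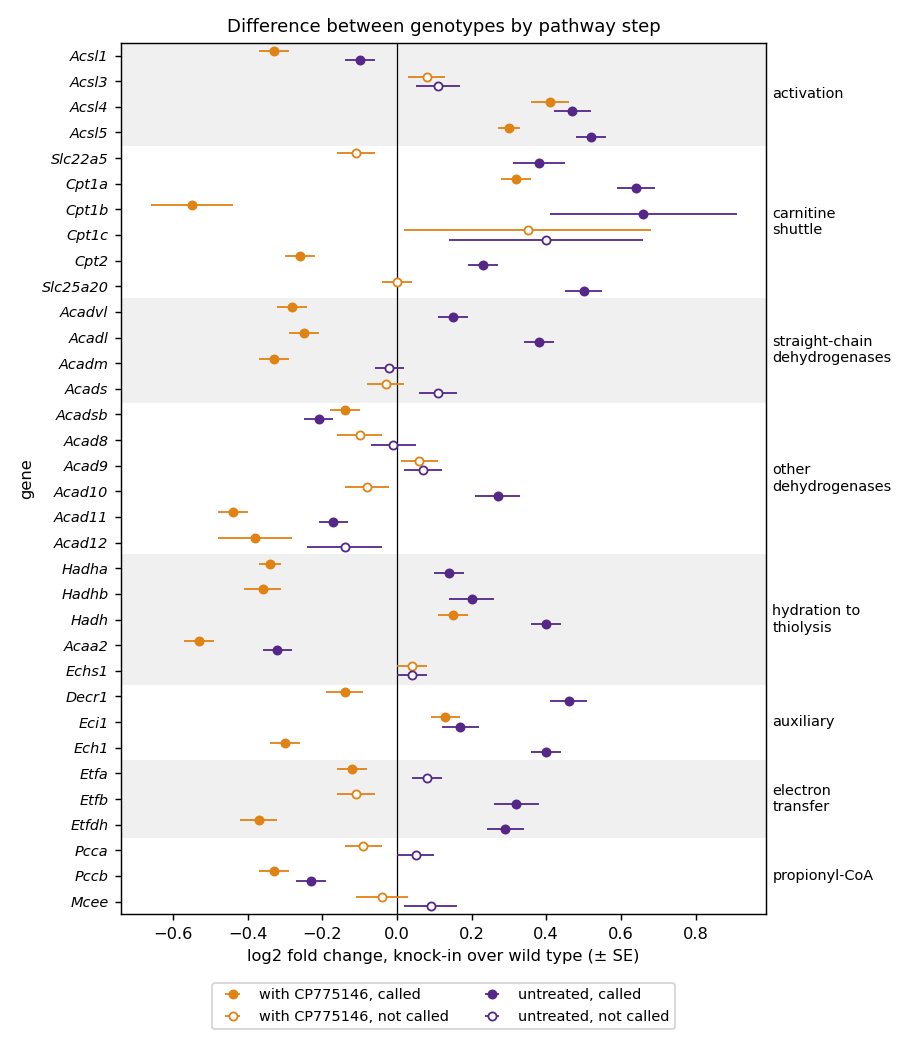
Difference between genotypes for the 34 tested genes (log2 fold change of knock-in over wild type, ± SE, n = 3 against 3), by pathway step, with treated hepatocytes drawn above untreated ones. Filled points are called (edgeR adjusted p below 0.05) and open points are not. For 9 genes the treated point is called below 0 and the untreated point is called above 0. The share of all tested genes that did so was not counted.

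The 9 genes Cpt1b, Cpt2, Acadvl, Acadl, Hadha, Hadhb, Decr1, Ech1 and Etfdh were called lower in the knock-in with the agonist and higher without it. Cpt1a, Acsl4, Acsl5, Hadh and Eci1 were higher in the knock-in in both states, and Acsl1, Acadsb, Acad11, Acaa2 and Pccb were lower in both. The shares of all tested genes with these patterns were not counted. Some of the calls were lost in settings given above, namely Cpt1b, Hadhb, Acsl1 and Acad11 without the agonist and Decr1, Acadsb, Hadh and Eci1 with it. Alb, the most abundant hepatocyte marker, was lower in the knock-in in both states, at -0.71 ± 0.04 log2 with the agonist and -0.53 ± 0.04 log2 without it, while the other 9 markers summed to 15201 to 15712 CPM in treated knock-in and 15940 to 16166 CPM in treated wild-type libraries, and their part in these differences was not tested.

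Without the agonist, 18 of the 34 genes stood higher in the knock-in, and a smaller log2 change need not be a smaller gain in CPM. As a log2 change, the response to the agonist was smaller in the knock-in. The test of this difference was the interaction of genotype and treatment. It was called for 21 of the 34 genes in the direction of a smaller response in the knock-in and for 0 in the other. Among all tested genes the interaction was called negative for 4.33% and positive for 2.78%. None of the 34 genes had a positive interaction at an unadjusted edgeR p below 0.05, and 0 were called positive by DESeq2 or limma voom. The median interaction of the 34 genes was -0.24 log2 beside -0.01 for all genes, and 33 values were below 0 and 1, that of Acadsb, above it. All 27 genes called up in both genotypes had the smaller log2 rise in the knock-in. The same share over all genes called up in both genotypes was not computed. Over all tested genes, rises of at least 2-fold were also fewer in the knock-in, at 2.62% against 3.89% in wild type. Across the 34 genes the response in the knock-in followed that in wild type with a Pearson r of 0.986, a description over genes that share the libraries, with no control library in common between the 2 responses.

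Cpt1b had the largest interaction, -1.21 ± 0.27 log2 (edgeR adjusted p = 0.00402), so that its fold rise in the knock-in was 0.432 times that in wild type. Ech1 followed at -0.70 ± 0.06 log2 (edgeR adjusted p = 5.34e-09), then Etfdh at -0.66 ± 0.07 log2 (edgeR adjusted p = 1.83e-07), Acadl at -0.64 ± 0.06 log2 (edgeR adjusted p = 3.62e-08) and Decr1 at -0.60 ± 0.07 log2 (edgeR adjusted p = 9.06e-07). These 5 genes belong to 4 steps of the pathway, and their fold rises in the knock-in were 0.616, 0.634, 0.644 and 0.659 times those in wild type for the 4 after Cpt1b. In the shuttle, Slc25a20 was at -0.50 ± 0.07, Cpt2 at -0.49 ± 0.06, Slc22a5 at -0.49 ± 0.09 and Cpt1a at -0.31 ± 0.06 log2. Both subunit genes of the trifunctional protein were called, Hadhb at -0.56 ± 0.08 and Hadha at -0.48 ± 0.05 log2, as were Hadh at -0.25 ± 0.06 and Acaa2 at -0.21 ± 0.06 log2.

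Among the dehydrogenases the interaction was also called for Acadvl at -0.43 ± 0.06, Acad10 at -0.36 ± 0.09, Acadm at -0.31 ± 0.06 and Acad11 at -0.28 ± 0.06 log2, and in electron transfer for Etfb at -0.43 ± 0.08 and Etfa at -0.20 ± 0.06 log2. Of the synthetases Acsl1 and Acsl5 were called, each at -0.22 ± 0.05 log2, while Acsl3 and Acsl4 had -0.03 ± 0.08 and -0.06 ± 0.07 log2 and were not. The smallest called values were the least stable. The call of Acaa2 was lost when any of 5 single libraries was left out (untreated knock-in replicate 1, treated knock-in replicates 1 and 2, untreated wild-type replicate 1 and treated wild-type replicate 3, highest edgeR adjusted p = 0.0985). That of Etfa was lost with total-count scaling (edgeR adjusted p = 0.0758) and without any of 6 (untreated knock-in replicates 1 and 2, treated knock-in replicate 1, untreated wild-type replicate 1 and treated wild-type replicates 2 and 3, highest edgeR adjusted p = 0.0826).

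The 13 genes without a called interaction included rises as large as that of Eci1, whose interaction was -0.04 ± 0.06 log2 (edgeR adjusted p = 0.795). Others were Echs1 at -0.01 ± 0.05, Acad9 at 0.00 ± 0.07 and Acadsb at 0.08 ± 0.06 log2. Acad12, Pcca and Pccb were called up in wild type alone, but their interactions of -0.24 ± 0.14, -0.13 ± 0.07 and -0.10 ± 0.06 log2 were not called, so a difference between genotypes was not shown for them.

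**Figure D5:**
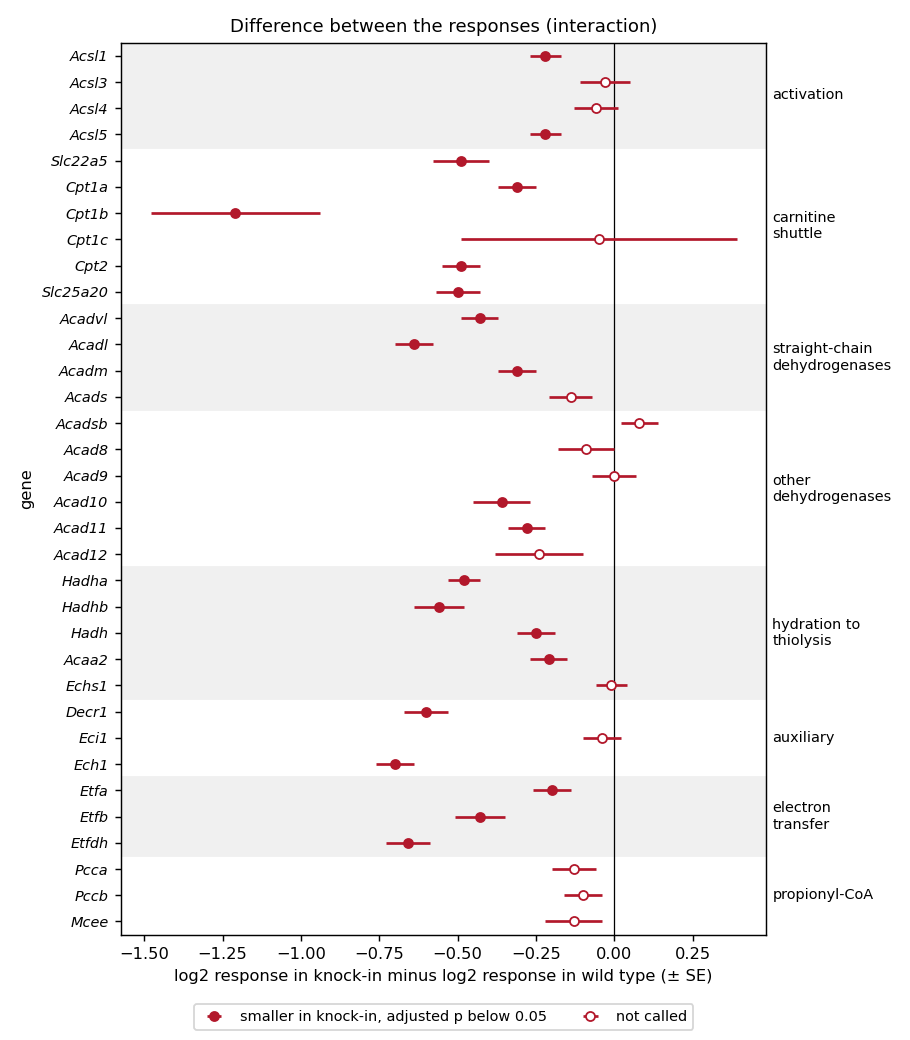
Difference between the responses of the genotypes for the 34 tested genes (log2 response in knock-in minus log2 response in wild type, ± SE), by pathway step. Filled points are called (edgeR adjusted p below 0.05), open points are not, and values left of 0 are smaller responses in the knock-in. The 21 called genes are all left of 0, with Cpt1b farthest at -1.21, and Acadsb is the only gene above 0.

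Genes around the pathway gave context, from lists that are not part of the 35. Beside their counts, 18.1% of all tested genes rose and 19.1% fell in the knock-in. In wild type 22.7% of all tested genes rose and 22.3% fell. In carnitine synthesis and the other carnitine acyltransferases (6 tested of 7), 3 rose in the knock-in, and 3 rose and 1 fell in wild type. Crat, the acetyltransferase that buffers acetyl-CoA with carnitine, rose 2.08 ± 0.04 log2 in the knock-in and 2.39 ± 0.04 log2 in wild type, and Aldh9a1, a dehydrogenase of carnitine synthesis, rose 1.31 ± 0.04 and 1.82 ± 0.04 log2. Bbox1, which makes the last step of carnitine synthesis, was at 0.05 ± 0.06 log2 in the knock-in, where it was not called, and fell in wild type with a log2 change of -0.40 ± 0.07. Among 5 genes that set malonyl-CoA, the inhibitor of CPT1, 4 rose in the knock-in and 3 in wild type. Acacb, the mitochondrial acetyl-CoA carboxylase that makes it, rose 3.9-fold in the knock-in and 4.54-fold in wild type, and Mlycd, the decarboxylase that removes it, rose 2.17-fold and 3.03-fold, so that genes of opposite effect rose together.

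The receptor gene Ppara averaged 93.8 ± 3.57 CPM in treated and 73.3 ± 2.32 CPM in untreated knock-in hepatocytes, and 127 ± 8.33 CPM in treated and 87.6 ± 1.17 CPM in untreated wild type (SD, n = 3 each). It was lower in the knock-in in both states, at -0.44 ± 0.04 log2 with the agonist (edgeR adjusted p = 2.11e-09) and -0.26 ± 0.05 log2 without it (edgeR adjusted p = 3.84e-05). Its interaction of -0.18 ± 0.06 log2 was not called (edgeR adjusted p = 0.09). Of the 7 genes of transcriptional control, 3 rose and 2 fell in each genotype. Among all tested genes 18.1% rose and 19.1% fell in the knock-in, and 22.7% rose and 22.3% fell in wild type. Ppargc1a, a coactivator of the receptor, fell, with log2 changes of -1.16 ± 0.09 in the knock-in and -1.12 ± 0.10 in wild type, and Ppargc1b, its relative, rose 0.59 ± 0.12 and 0.42 ± 0.12 log2. Rxra, the partner of PPAR-alpha, had an interaction of 0.24 ± 0.05 log2 (edgeR adjusted p = 0.00392), with 240 ± 5.01 CPM in treated and 232 ± 4.32 CPM in untreated knock-in and 209 ± 7.4 CPM in treated and 238 ± 5.14 CPM in untreated wild-type hepatocytes (SD, n = 3 each).

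A further list held 26 genes around mitochondrial acyl-CoA metabolism, not all of them enzymes of it (such as Ecsit and Ndufaf1). Of these, 13 rose and 5 fell in the knock-in and 14 rose and 4 fell in wild type, with medians of 0.12 and 0.15 log2. Among all tested genes 18.1% rose and 19.1% fell in the knock-in, and 22.7% rose and 22.3% fell in wild type. In this list the interaction was called for Acot2 and Eci2, both with the smaller response in the knock-in. The interaction was called lower for 4.33% and higher for 2.78% of all tested genes. Acot2, a thioesterase with close relatives beside it that could share its reads, was at -0.88 ± 0.07 log2 and Eci2, an isomerase like Eci1, at -0.55 ± 0.07 log2.

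Peroxisomal beta-oxidation, which shortens very long chains before they reach mitochondria, served as the nearest comparison. Of its 15 genes 13 rose in the knock-in, and 12 rose and 1 fell in wild type, with medians of 1.06 and 1.22 log2 close to those of the mitochondrial genes. Among all tested genes 18.1% rose in the knock-in, and 22.7% rose and 22.3% fell in wild type. For the peroxisomal genes the interaction was called lower for 3 and higher for 2, with a median of -0.02 log2. By comparison, 21 of the 34 mitochondrial genes were called lower with a median of -0.24 log2, and 4.33% of all tested genes were called lower and 2.78% higher. Ehhadh, the peroxisomal bifunctional enzyme, rose 75-fold in the knock-in and 74.2-fold in wild type, with an interaction of 0.02 ± 0.06 log2 that was not called. Acaa1b, a peroxisomal thiolase gene with a near-identical relative, had an interaction of 0.50 ± 0.09 log2 in the direction of a larger response in the knock-in. Hsd17b4 and Abcd3, a bifunctional enzyme and a fatty acid transporter of peroxisomes, had -0.37 ± 0.06 and -0.33 ± 0.06 log2. The difference between the mitochondrial and the peroxisomal genes was not tested as such.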

How the data were processed

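RNA of primary hepatocytes was measured in 12 libraries, in 4 groups of 3 taken from the genotype and treatment labels. The authors deposited raw read counts per gene, 1 table per library, with no normalization. Per the file headers featureCounts 1.6.2 counted reads in exons and reported them per gene, using the Ensembl annotation release 83 (mm10, GRCm38), with no option for strand, multi-mapping or multiply overlapping reads. The submitters' processing notes name featureCounts 1.4.6-p4 instead, with Subread, cutadapt 1.9, FastQC 0.11.2 and edgeR 3.18.1. Libraries were TruSeq preparations sequenced in a pair of rounds, per the labels' protocols.

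From these counts, genes were kept with filterByExpr (minimum count 10, minimum total 15), which retained 15664 genes holding 99.94% or more of every library's counts. After TMM scaling, edgeR 4.0.16 under R 4.3.3 was used for a robust glmQLFit with 1 term per group over 12 libraries, and 5 contrasts were tested with glmQLFTest: CP775146 in each genotype, genotype with and without it, and their interaction. Calls are Benjamini-Hochberg adjusted p below 0.05 over all tested genes. Levels are TMM-scaled CPM, and levels per kilobase divide them by the union exon length in the deposited tables. Libraries of a group differed by more than sampling noise (chi-square per degree of freedom 1.68 to 6.43), so none was taken as the same library sequenced again. This comparison cannot tell separate animals or cultures from separate preparations of the same sample. At total counts of 26956032 to 34885451, 3 counts are at most 0.111 CPM before TMM scaling, and this floor covers counting error only.

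The 35 genes and the lists around them were chosen with earlier results of these data known. All 35 were described, and of each surrounding list up to 2 called genes per direction and contrast with the largest change and a mean of at least 1 CPM were eligible to be named, with Ppara always. Of the genes this rule picked, 1 is not reported here. Symbols came from a table of gene names by Ensembl identifier, which matched 46488 of 46983 identifiers. RefSeq synonyms were searched for listed genes without a match. Promoter windows came from RefSeq tables of GRCm38.p6. The 37 genes of the mitochondrial chromosome hold 0 counts in every library, and were left out. The carnitine synthesis gene Tmlhe was not matched. Results were recomputed with DESeq2 1.42.0, voom of limma 3.58.1 with sample weights, RLE or total-count scaling, all genes with a count, genes above 5 CPM in 3 libraries, a fit without robust estimation, the compared groups alone, a minimum of 1.5-fold, the replicate number as a block, and each library left out.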

Additional observations from a re-analysis of the deposited data

Results flagged for a closer look

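The responses to CP775146 differed between the genotypes, by the edgeR interaction test, for the 21 pathway genes described above and for 12 of the surrounding genes that the naming rule picked and that are given here. Each value is the log2 response in the knock-in minus that in wild type. In the shuttle the differences were -1.21 for Cpt1b, -0.50 for Slc25a20, -0.49 for Slc22a5 and Cpt2 and -0.31 for Cpt1a. In the acyl-CoA synthetase step they were -0.22 for Acsl1 and for Acsl5. For the dehydrogenases they were -0.64 for Acadl, -0.43 for Acadvl, -0.36 for Acad10, -0.31 for Acadm and -0.28 for Acad11. From hydration to thiolysis they were -0.56 for Hadhb, -0.48 for Hadha, -0.25 for Hadh and -0.21 for Acaa2. The auxiliary genes Ech1 and Decr1 had -0.70 and -0.60, and in electron transfer Etfdh, Etfb and Etfa had -0.66, -0.43 and -0.20.

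Of the surrounding genes, 8 had negative differences, Acot2 of -0.88, Eci2 of -0.55, Aldh9a1 of -0.51, Mlycd of -0.48, Hsd17b4 of -0.37, Crot of -0.34, Abcd3 of -0.33 and Acacb of -0.22. The other 4 had positive differences, Acaa1b of 0.50, Bbox1 of 0.44, Acaca of 0.36 and Rxra of 0.24. Crot encodes the peroxisomal carnitine octanoyltransferase and Acaca the cytosolic acetyl-CoA carboxylase. The libraries of the knock-in varied less than those of wild type, with a biological coefficient of variation of 2.61% in treated and 2.57% in untreated knock-in and 5.32% in treated and 5.09% in untreated wild-type libraries, and the part of this in the calls was not tested.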

How the results depend on the processing

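Under other settings, 1660 values of single pathway genes were compared. Of these, 1620 kept their status (called in the same direction, or not called), 22 lost the call, 17 gained it and 1 reversed. The reversed value was that of Etfa between treated genotypes, at 0.02 log2 with total-count scaling. Of 2040 values with a library left out, 1987 kept their status, 44 lost the call and 9 gained it. Over both sets, 54 values that stayed uncalled changed sign. With total-count scaling the median of all genes moved to -0.104 (CP775146 in wild type) and 0.124 log2 (treated genotypes), and the share of rises among all calls was 32.2% in the knock-in response, 30.6% in the wild-type response, 74.5% between untreated and 76.1% between treated genotypes and 56.1% for the interaction, beside 48.7, 50.4, 49.7, 48.3 and 39.1% with TMM. With that scaling 24 pathway genes rose in the knock-in and 25 in wild type, 25 were higher and 3 lower in the untreated knock-in, 9 higher and 14 lower in the treated knock-in, and 20 had a smaller response in the knock-in. A filter of 5 CPM, which removes Cpt1c, left 1 fall in each genotype, and limma voom left 1 in wild type. With at least 1.5-fold required, 2 genes were higher and 0 lower in the untreated knock-in, 0 higher and 0 lower in the treated knock-in, and 5 had a smaller response, so most differences between genotypes are small. The other 2 counts with that rule were 23 rises in the knock-in and 24 in wild type.

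With single libraries left out, the counts ranged from 26 to 27 rises and 2 to 2 falls in the knock-in, 27 to 31 rises and 1 to 2 falls in wild type, 17 to 19 higher and 4 to 5 lower between untreated genotypes, 3 to 5 higher and 15 to 18 lower between treated genotypes, and 19 to 21 smaller and 0 to 0 larger responses in the knock-in. Replicate numbers did not pair the libraries: deviations of same-numbered libraries correlated at -0.026 to 0.063, with 0 of 18 pairs over 0.1. A replicate block gave 27 rises in the knock-in, 30 in wild type and 21 smaller responses, and within each genotype it gave the same counts and 17 higher and 4 lower genes between untreated genotypes. Depth limits precision most for Acsl6, with 1 count in all, and for Cpt1b and Cpt1c, with under 50 counts in each untreated library.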
